A study of Mus musculus with 22 samples.

Results

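The 40 genes described here encode the signalling machinery that runs from the T cell antigen receptor to calcium-dependent transcription. They were chosen by name, out of 21887 protein-coding genes of the mouse RefSeq annotation, and each was examined as its gene body with 10 kb on each side. They comprise 5 receptor and co-receptor genes (Cd3e, Cd3d, Cd3g, Cd247, Cd4), 4 tyrosine kinases (Lck, Fyn, Zap70, Txk), 5 adaptors and proximal effectors (Lat, Lcp2, Plcg1, Vav1, Themis) and 7 downstream signalling genes (Prkcq, Bcl10, Malt1, Rasgrp1, Sos1, Pik3cd, Pik3r1). A further 8 genes act in calcium release, entry and sensing (Itpr1, Itpr3, Stim1, Stim2, Orai1, Ppp3ca, Ppp3cb, Ppp3cc), and 11 are phosphatases and inhibitors (Ptprc, Ptpn22, Ptpn6, Csk, Cbl, Cblb, Dgka, Dgkz, Cd5, Ubash3a, Pag1). Ptprc, which encodes CD45, both activates and restrains Src family kinases.

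Chromatin immunoprecipitation sequencing had been performed on primary mouse regulatory T cells (Treg cells) purified from spleen and lymph nodes, and stimulated for 1 h with Cell Stimulation Cocktail. Fixation in 1% formaldehyde lasted 5 min before histone immunoprecipitation and 30 min before that of the factors. Wild-type (WT) cells were compared with cells of the genotype IkE5-deletion, written IkE5 below. The labels do not expand this name, nor do they say in which cells the deletion is active, how old the animals were or whether animals were pooled. The series title names Ikzf1, which encodes the zinc finger factor Ikaros. Foxp3, the acetyltransferase p300, NFAT1 and acetylated lysine 27 of histone H3 (H3K27ac) were mapped in 2 libraries of each genotype, and Ikaros in 2 WT libraries. The comparisons address which sites at these genes differ between the genotypes.

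When an antigen receptor is engaged, Lck phosphorylates the CD3 and zeta chains, Zap70 docks there and phosphorylates the adaptors Lat and Slp-76 (Lcp2), and phospholipase C gamma 1 makes the second messengers IP3 and diacylglycerol. IP3 opens the IP3 receptors of the endoplasmic reticulum, Stim proteins sense the emptied store and open the Orai channel, and the calcium that enters activates the phosphatase calcineurin, which sends NFAT to the nucleus. Diacylglycerol recruits protein kinase C theta and RasGRP1, which feed NF-kappaB and Ras signalling. In Treg cells NFAT works together with Foxp3, so the genes of this pathway are both upstream of NFAT1 and, where NFAT1 binds them, among its possible targets. The cells mapped here were stimulated with Cell Stimulation Cocktail, so the receptor steps above are background and were not tested in them.

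The Foxp3 lists held 16526 to 21619 peaks, the p300 lists 8775 to 11670, the Ikaros lists 22297 and 26641 and the H3K27ac lists 35272 to 53032. The NFAT1 lists were shorter in IkE5 (4908 and 3435 peaks) than in WT (7825 and 6850), and this touches each NFAT1 count below. Read depth is unknown, because the lists give positions alone, so the absence of a peak from a list is not the absence of binding. All 6 Treg marker genes tested carried H3K27ac, with summed scaled lengths of 236 and 249 kb in WT and 268 and 266 kb in IkE5. Of 6 markers each of other cell types, 3 myeloid (Lyz2, Csf1r, Adgre1), 1 natural killer (Ncr1) and 1 non-haematopoietic marker (Pdgfra) were at 0 in all 4 H3K27ac libraries. The 6 myeloid markers summed to 13.2 and 13.4 kb in WT and 9.05 and 11.6 kb in IkE5, and the 6 CD8 T and natural killer markers to 7.84 and 7.01 kb and to 5.15 and 6.17 kb. The 6 non-haematopoietic markers summed to 44.2 and 54.2 kb in WT and 39.4 and 39.3 kb in IkE5, nearly all of it at Pecam1 (40.1, 53.5, 35.3 and 39.3 kb), which haematopoietic cells express too, with at most 2.54 kb at any of the other 5. The part of other cells in the results was not tested.

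The promoters below are shown because a peak call there separated the genotypes, or because every mapped target was present there. The first 4, of Lck, Lcp2, Rasgrp1 and Pik3r1, each lay under a peak found in both WT libraries and neither IkE5 library. The other 2, of Zap70 and Ptpn22, carried peaks of all 5 targets in every library. Sequences run 5′ to 3′ on the gene's strand from 250 bases before to 50 bases after the transcription start and come from RefSeq on GRCm38.p6, the assembly of mm10. Lck, Pik3r1 and Ptpn22 have 2 promoters each in that table and Zap70 has 3, and the promoter with the most factor peaks is shown. Capitals mark matches to any of 6 short motifs on either strand.
Lck: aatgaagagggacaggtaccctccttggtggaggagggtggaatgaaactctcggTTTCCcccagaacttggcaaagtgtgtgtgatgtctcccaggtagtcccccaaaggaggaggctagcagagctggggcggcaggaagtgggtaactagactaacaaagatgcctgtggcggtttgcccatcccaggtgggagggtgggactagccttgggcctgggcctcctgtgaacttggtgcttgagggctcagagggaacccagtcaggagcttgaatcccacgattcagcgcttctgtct
Lcp2: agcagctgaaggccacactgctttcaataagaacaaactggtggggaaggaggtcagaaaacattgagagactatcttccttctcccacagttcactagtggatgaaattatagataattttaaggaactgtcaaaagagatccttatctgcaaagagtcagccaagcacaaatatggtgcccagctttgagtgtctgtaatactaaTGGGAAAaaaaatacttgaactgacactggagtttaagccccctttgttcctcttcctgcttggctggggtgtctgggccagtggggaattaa
Rasgrp1: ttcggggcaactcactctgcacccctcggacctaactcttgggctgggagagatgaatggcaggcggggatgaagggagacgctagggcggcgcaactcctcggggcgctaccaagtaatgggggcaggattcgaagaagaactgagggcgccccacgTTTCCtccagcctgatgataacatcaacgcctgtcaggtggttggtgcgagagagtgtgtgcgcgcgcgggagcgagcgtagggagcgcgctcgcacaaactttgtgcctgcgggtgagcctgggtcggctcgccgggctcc
Pik3r1: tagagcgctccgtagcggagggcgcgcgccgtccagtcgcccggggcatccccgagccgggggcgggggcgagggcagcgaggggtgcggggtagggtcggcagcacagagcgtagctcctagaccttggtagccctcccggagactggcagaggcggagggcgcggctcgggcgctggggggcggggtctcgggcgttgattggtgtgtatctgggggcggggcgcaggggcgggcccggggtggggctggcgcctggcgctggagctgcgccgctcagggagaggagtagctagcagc
Zap70: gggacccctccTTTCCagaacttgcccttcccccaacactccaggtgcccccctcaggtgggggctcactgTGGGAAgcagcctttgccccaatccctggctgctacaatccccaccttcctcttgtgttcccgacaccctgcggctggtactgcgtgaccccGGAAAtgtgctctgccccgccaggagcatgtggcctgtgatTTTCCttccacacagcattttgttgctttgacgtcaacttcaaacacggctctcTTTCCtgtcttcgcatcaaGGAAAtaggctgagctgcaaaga
Ptpn22: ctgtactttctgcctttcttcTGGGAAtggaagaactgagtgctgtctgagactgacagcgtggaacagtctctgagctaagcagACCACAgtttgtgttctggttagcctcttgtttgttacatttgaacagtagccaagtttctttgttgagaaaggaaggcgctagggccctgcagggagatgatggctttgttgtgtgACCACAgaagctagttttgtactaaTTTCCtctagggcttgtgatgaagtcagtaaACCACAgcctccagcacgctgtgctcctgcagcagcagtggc

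These windows lie at chr4:129558323-129558622 (Lck, minus strand), chr11:34046678-34046977 (Lcp2, plus), chr2:117342828-117343127 (Rasgrp1, minus), chr13:101768168-101768467 (Pik3r1, minus), chr1:36761548-36761847 (Zap70, plus) and chr3:103860027-103860326 (Ptpn22, plus). The motifs searched were the NFAT core GGAAA, the Ikaros core TGGGAA, the forkhead core TGTTTAC, the Ets core CCGGAAG, the Runx core TGTGGT and the AP-1 site TGAGTCA. The NFAT and Ikaros cores can overlap, as they do once in the Lcp2 promoter. The Zap70 promoter held 5 NFAT core matches and 1 Ikaros core match, and the Ptpn22 promoter 1 of each and 3 Runx core matches. The Lck and Rasgrp1 promoters held 1 NFAT core match each and the Pik3r1 promoter none of the 6 motifs. Such short words are common: the NFAT core stood in 61.3% of all 32851 promoters of that length and in 30 of the 49 promoters of these genes (61.2%). The Ikaros core stood in 25.6% of all promoters and in 16 of these 49 (32.7%), the Runx core in 16.8% and 6 (12.2%) and the Ets core in 8.86% and 1 (2.04%). The forkhead core (3.65% of all) and the AP-1 site (5.20% of all) stood in 0 of the 49.

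Of the 2 promoters of Lck, the kinase that starts the cascade, the one inside the annotated gene carried p300 and NFAT1 in both WT libraries and in neither IkE5 library. The p300 region was chr4:129558440-129558976 and the NFAT1 region chr4:129558404-129558913, so the 2 lay almost on top of each other. Foxp3 and H3K27ac were called at the same place in all 4 libraries, and Ikaros in both WT libraries. The other Lck promoter, at the far end of the gene (chr4:129573592-129573891), had H3K27ac in all 4 libraries and no factor in any. The nearest p300 peak of IkE5 was 16.1 kb away and the nearest NFAT1 peak of IkE5 13.3 kb away. The Lcp2 promoter had NFAT1 in WT only (chr11:34046809-34047317), with Ikaros in both WT libraries, no p300 in any library, and Foxp3 in library 1 of each genotype. At Rasgrp1 a Foxp3 region over the promoter (chr2:117342642-117343383) was found in WT only, but a Foxp3 peak of IkE5 library 1 lay 0.11 kb away, beside NFAT1 peaks present in all 4 libraries. At Pik3r1, which encodes the regulatory subunit of PI3 kinase, the promoter at the gene's end had Foxp3 in WT only (chr13:101767724-101768305) with Ikaros in both WT libraries and without p300 or NFAT1, while its internal promoter (chr13:101692581-101692880) had H3K27ac alone.

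**Figure D1:**
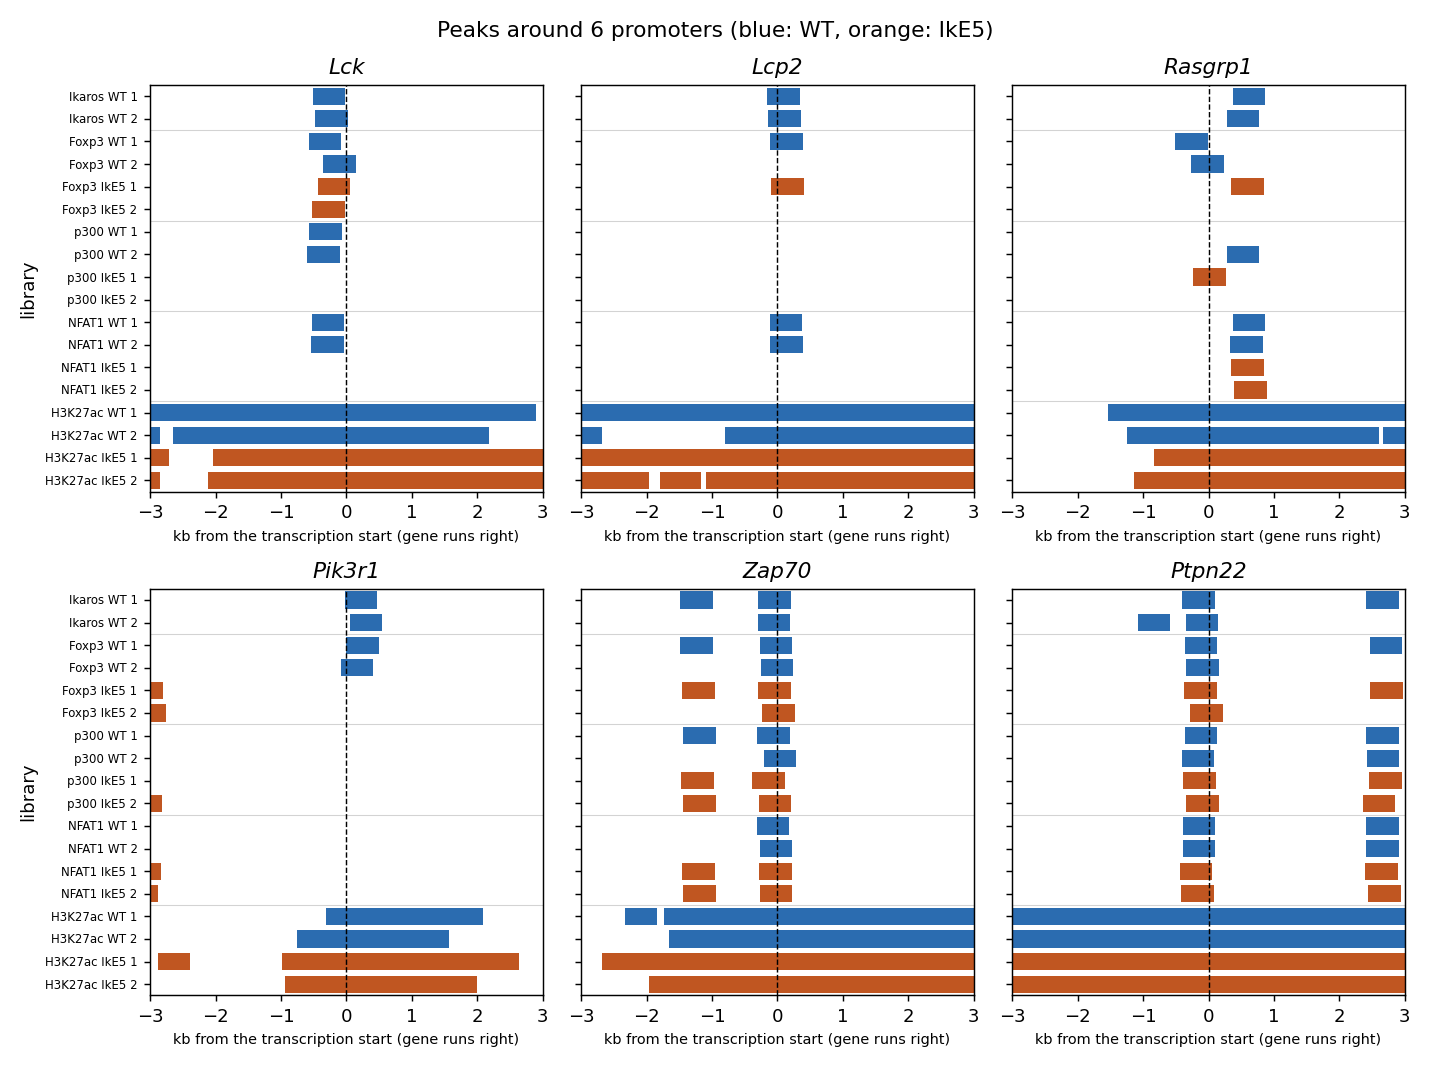
Peaks around the transcription starts of Lck, Lcp2, Rasgrp1, Pik3r1, Zap70 and Ptpn22, 1 row per library, in kb from the start with the gene running to the right (blue WT, orange IkE5). The internal Lck start has p300 and NFAT1 bars in the WT rows and none in the IkE5 rows, while the Zap70 and Ptpn22 starts have bars of all 5 targets in every row.

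Of the 40 genes, 34 had a promoter in the RefSeq table, and all 34 had H3K27ac over it in both libraries of both genotypes (47.5% of all genes in WT and 48.0% in IkE5). Factors were found over the promoter less often. Foxp3 was there in both libraries at 11 genes in WT and 10 in IkE5 (22.8% and 21.9% of all genes), Ikaros at 10 in WT (31.1% of all genes), NFAT1 at 6 in WT and 4 in IkE5 (4.39% and 1.10%), and p300 at 4 in WT and 2 in IkE5 (8.36% and 6.55%). The NFAT1 promoters in WT were those of Cd3e, Lck, Zap70, Lcp2, Bcl10 and Ptpn22. Cd3e, Zap70, Bcl10 and Ptpn22 had NFAT1 there in both IkE5 libraries as well, and Lck and Lcp2 did not.

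In WT cells most of these genes had peaks of every mapped target. Peaks of all 5 targets stood in both WT libraries at 26 of the 40 genes (65%), against 13.7% of all protein-coding genes. The windows of the 40 genes are longer than most, with a median of 72.6 kb against 37.2 kb for all genes, and 26 of the 40 hold part of another protein-coding gene. The neighbours Cd3e, Cd3d and Cd3g share regions with each other, so they are not independent.

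Ikaros was found in both WT libraries at 39 of 40 genes (55.2% of all genes), and at the remaining gene, Ppp3cc, in 1 library. Foxp3 was found in both WT libraries at 37 genes (46.2% of all genes) and in both IkE5 libraries at 38. Orai1, which encodes the calcium channel pore, had 2, 0, 1 and 0 Foxp3 peaks in WT 1, WT 2, IkE5 1 and IkE5 2, and Ppp3cc had 1, 1, 1 and 0, the fewest of the 40 genes. H3K27ac was found in every library at all 40 (60.8% of all genes in both WT libraries and 61.2% in both IkE5 libraries). None of the genes that had Foxp3 in both libraries of 1 genotype lacked it in both libraries of the other, which is also rare over all genes (1.84% from WT and 3.02% from IkE5).

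p300 was found in both WT libraries at 31 genes (25.2% of all genes) and in both IkE5 libraries at 33 (22.2%). Sos1, a Ras exchange factor, and Ppp3cc, a calcineurin catalytic subunit, each had 0 and 0 p300 peaks in WT and 1 and 1 in IkE5. Itpr3 and Ppp3cb each had 0 and 1 p300 peaks in WT and 0 and 0 in IkE5. Only Sos1 and Ppp3cc of the 33 genes with p300 in both IkE5 libraries had none in WT, where 8.41% of all such genes did.

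NFAT1 was found in both WT libraries at 32 genes (17.3% of all genes) and in both IkE5 libraries at 29 (8.27%). Sos1, Itpr3, Ppp3cb and Pag1 had no NFAT1 peak in any of the 4 libraries. Plcg1, the phospholipase that makes IP3, had 3 and 1 NFAT1 peaks in WT and 0 and 0 in IkE5, and Cbl, a ubiquitin ligase that ends receptor signalling, had 2 and 2 in WT and 0 and 0 in IkE5. These were the only 2 of the 32 genes with NFAT1 in both WT libraries and none in IkE5, where 37.3% of all 3788 such genes had none. Themis, a T cell adaptor needed for thymocyte selection, went the other way with 0 and 0 in WT and 1 and 1 in IkE5, though its 2 IkE5 peaks were at different sites. It was 1 of 29 genes with NFAT1 in both IkE5 libraries, and 6.63% of all such genes had none in WT.

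**Figure D2:**
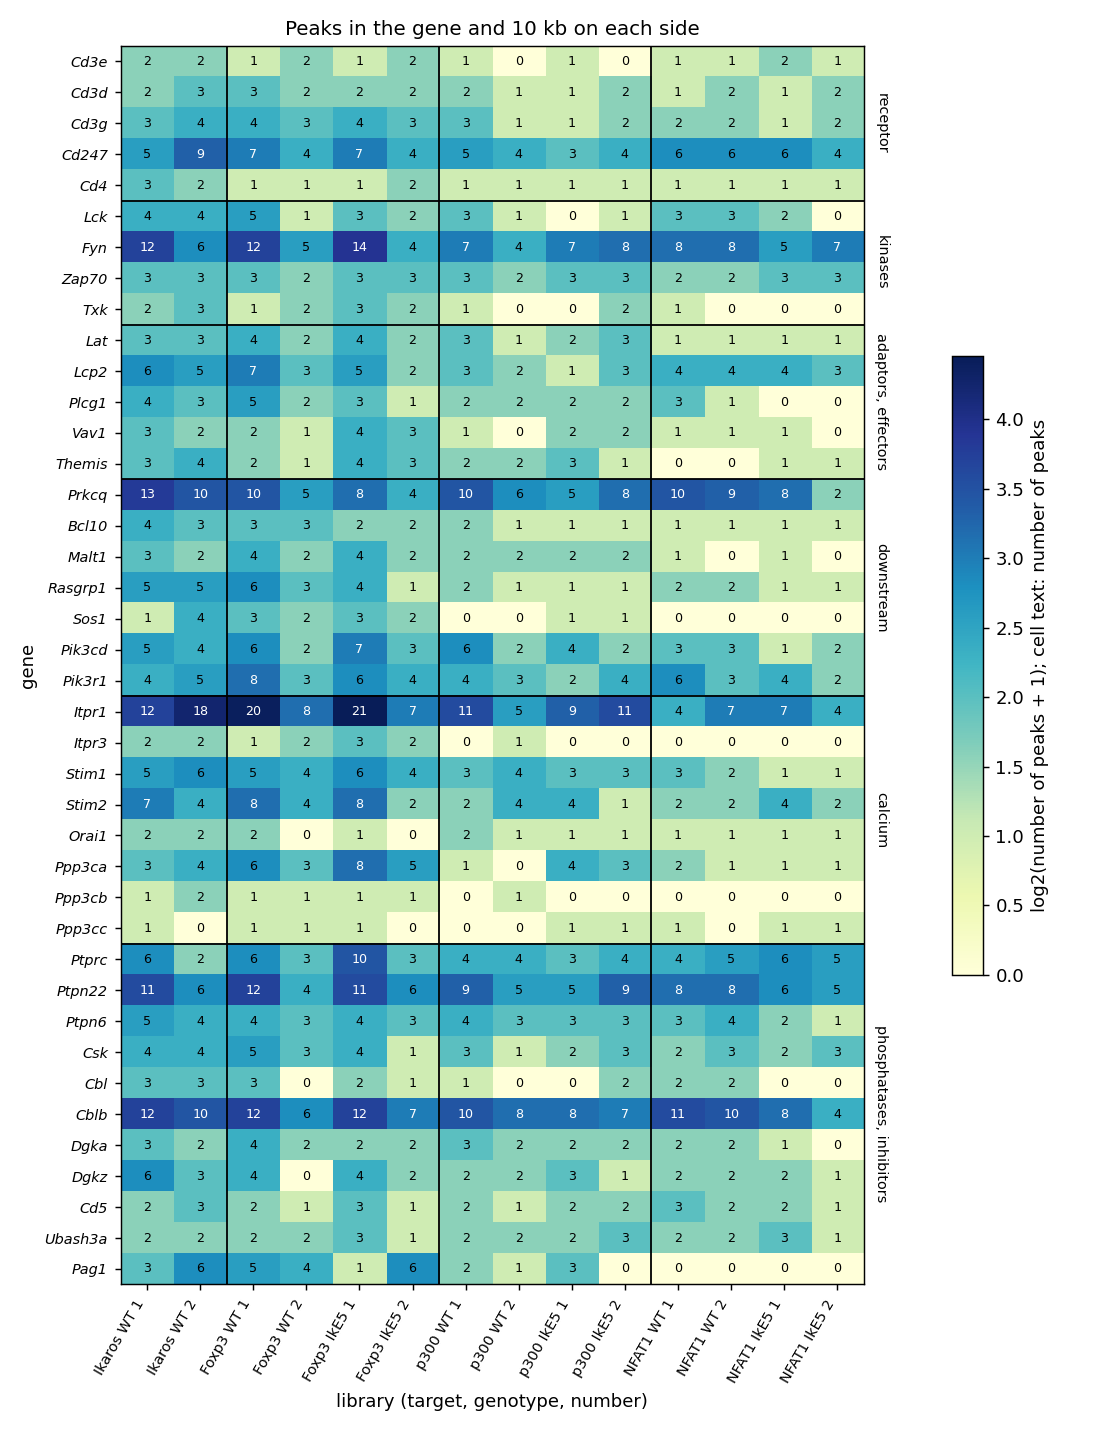
Number of peaks (cell text; colour is log2 of the number plus 1) at each gene with 10 kb on each side, with genes in rows grouped by role and libraries in columns by target, genotype and number. Itpr1, Fyn, Cblb, Ptpn22 and Prkcq have the darkest rows, and the NFAT1 columns of Plcg1 and Cbl read 0 in both IkE5 libraries.

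The calcium release channel gene Itpr1 has the longest window of the 40 genes, 358 kb against a median of 72.6 kb. It had the most Foxp3 peaks of the 40 genes, with 20 and 8 in WT and 21 and 7 in IkE5. It also had the highest p300 count of any single library, 11 in WT 1 and in IkE5 2, beside 5 in WT 2 and 9 in IkE5 1. Cblb, an inhibitory ubiquitin ligase that Treg and conventional T cells use to set the activation threshold, had the most NFAT1 peaks, with 11 and 10 in WT and 8 and 4 in IkE5, so its IkE5 libraries lay below both WT libraries. Prkcq, which encodes protein kinase C theta, had 10 and 9 NFAT1 peaks in WT and 8 and 2 in IkE5.

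Summed over the 40 genes, NFAT1 peaks numbered 108 and 101 in WT and 90 and 62 in IkE5. The WT mean was 104.5 ± 4.95 and the IkE5 mean 76 ± 19.8 (SD, n = 2 each), a ratio of 0.727, with both IkE5 libraries below both WT libraries. The exact permutation p of 0.333, 2-sided, is the smallest that 2 libraries against 2 can give. The whole lists fell further, with a ratio of 0.569, and as a share of its list the count at the 40 genes was higher in IkE5 (1.83 and 1.80%) than in WT (1.38 and 1.47%). Foxp3 peaks at the genes numbered 197 and 100 in WT and 195 and 105 in IkE5 (ratio 1.01, exact permutation p = 1), and p300 peaks 122 and 80 in WT and 97 and 107 in IkE5 (ratio 1.01, exact permutation p = 1). H3K27ac peaks numbered 519 and 417 in WT and 521 and 427 in IkE5 (ratio 1.01, exact permutation p = 0.667). For these 3 targets the spread between libraries of 1 genotype was wider than the difference between genotypes. Whether the 2 libraries of a group are from different animals is not stated, so p-values here rest on a spread between libraries that may be technical.

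To compare sites, peaks of a target from its 4 libraries that shared at least 1 bp were merged into a region. A region is called WT only when both WT libraries and neither IkE5 library had a peak in it, and IkE5 only in the reverse case. NFAT1 gave the most WT only regions of the 3 factors at these genes, 23 of 151 regions (15.2%, against 19.4% of all NFAT1 regions), spread over 17 of the 36 genes with any NFAT1 region. Across the genome 31.1% of genes with an NFAT1 region had a WT only region, so the share of genes was above its background while the share of regions was below its own. IkE5 only NFAT1 regions numbered 6 (3.97%, against 3.72% of all), at 5 genes (4.61% of genes across the genome). Leaving out 1 library relaxes the definition and gave 26 to 41 WT only and 8 to 18 IkE5 only NFAT1 regions.

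Read over the regions that both WT libraries shared, 23 of 82 NFAT1 regions at the 40 genes (28.0%) had no peak in either IkE5 library, a smaller share than the 40.6% of all such regions in the genome. Another 38 regions at the genes had NFAT1 in all 4 libraries. Of these 38, 24 had Ikaros in both WT libraries (63.2%, against 71.1% of all such regions). Of the 17 genes with a WT only NFAT1 region, 12 also had a region with NFAT1 in all 4 libraries, and the other 5 were Lck, Plcg1, Cbl, Dgka and Ppp3ca. Ikaros was called in both WT libraries at 17 of the 23 WT only NFAT1 regions (73.9%, against 76.8% of all such regions) and at 0 of the 6 IkE5 only NFAT1 regions (25.5% of all such regions), 3 of which had it in 1 library. H3K27ac was called in all 4 libraries at 21 of the 23 WT only NFAT1 regions (84.7% of all), and Foxp3 in all 4 at 9 of them (51.1% of all).

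For Foxp3, 8 of 272 regions (2.94%, against 2.44% of all) were WT only, at 6 genes (6.31% of genes with a Foxp3 region across the genome), and 5 regions (1.84%, against 3.22%) were IkE5 only, at 4 genes (7.25%). Of the 8, 3 had a Foxp3 peak of the other genotype within 1 kb. For p300, 5 of 172 regions (2.91%, against 5.63% of all) were WT only, at 5 genes (11.3%), and 7 regions (4.07%, against 6.01%) were IkE5 only, at 6 genes (8.56%). Counted over regions, only the share of WT only Foxp3 was above that of all regions, while counted over genes each of these 4 shares was above its background. Without a single library the counts ran from 16 to 39 (Foxp3, WT only), 7 to 46 (Foxp3, IkE5 only), 10 to 28 (p300, WT only) and 9 to 23 (p300, IkE5 only).

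H3K27ac regions numbered 559 at the 40 genes, of which 165 were in all 4 libraries. WT only regions numbered 21 (3.76%, against 4.69% of all) at 16 genes (13.3% of genes across the genome), and IkE5 only regions 27 (4.83%, against 3.9%) at 16 genes (11.2%). Of these 27, 10 were at Itpr1. An H3K27ac peak of the other genotype lay within 1 kb of 13 of the 21 WT only and 10 of the 27 IkE5 only regions. Leaving out 1 library gave 27 to 119 WT only and 30 to 127 IkE5 only regions. In total 25 of the 40 genes held a WT only region of some target (30.3% of all genes with any region) and 22 an IkE5 only region (19.9%), 13 of them both (7.22%), in windows longer than those of most genes, while Lat, Sos1, Csk, Orai1, Cd5 and Txk held neither.

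**Figure D3:**
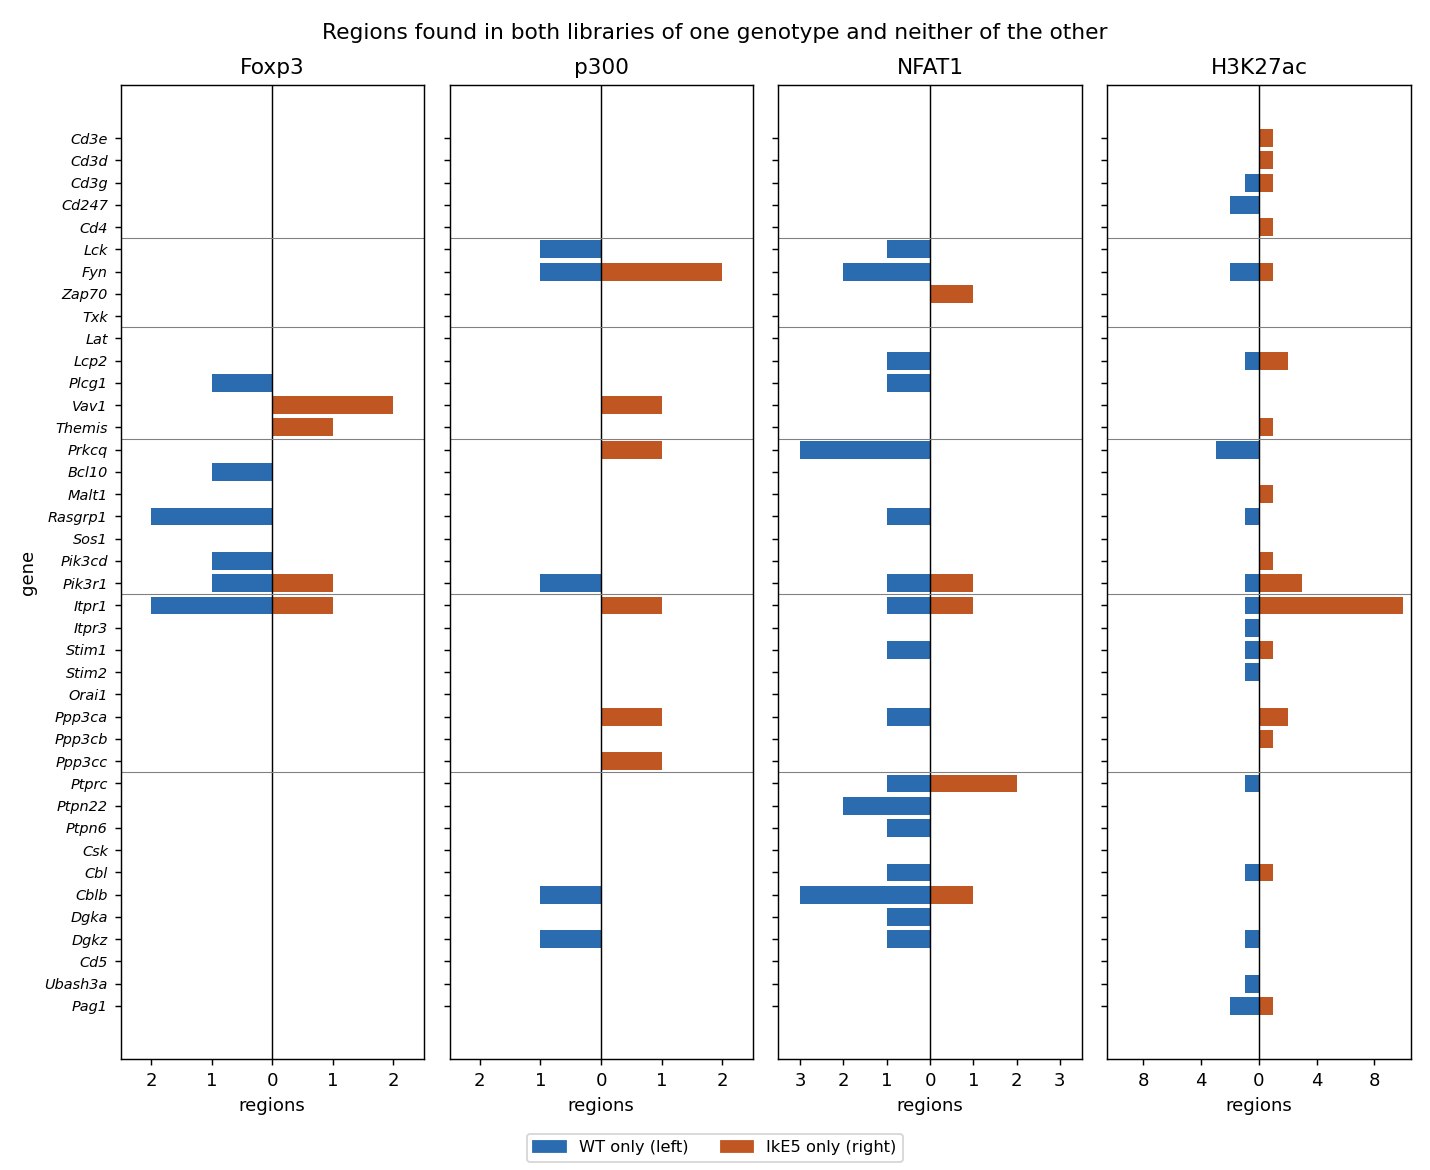
Number of WT only regions (left of zero) and IkE5 only regions (right of zero) of Foxp3, p300, NFAT1 and H3K27ac at each gene, with genes in rows. NFAT1 bars point mainly left (23 WT only against 6 IkE5 only regions), and the longest bar is that of the 10 IkE5 only H3K27ac regions at Itpr1.

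Among the receptor genes no factor region separated the genotypes. Cd247, the zeta chain that carries most of the receptor's signalling motifs, had 6 and 6 NFAT1 peaks in WT and 6 and 4 in IkE5. It had 2 H3K27ac regions in WT only, chr1:165829959-165830713 and chr1:165832821-165833709, both within 1 kb of IkE5 acetylation. The CD3 cluster held 1 WT only H3K27ac region (chr9:44970108-44970771, in Cd3g) and 1 IkE5 only region between the genes (chr9:44990329-44991282), which counts for Cd3e, Cd3d and Cd3g alike. Cd4, the co-receptor that brings Lck to the complex, had 1 IkE5 only H3K27ac region 9.27 kb outside the gene (chr6:124897522-124898318).

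Among the kinases, Fyn, the second Src family kinase of T cells, repeated the pattern of the internal Lck promoter. At 32.9 kb from the start p300 (chr10:39402453-39402962) and NFAT1 (chr10:39402465-39402973) were in WT only, while Foxp3 and H3K27ac were in all 4 libraries and Ikaros in both WT libraries. A second WT only NFAT1 region lay at 43.6 kb (chr10:39413156-39413674). Fyn also had 2 IkE5 only p300 regions, at 7.10 kb (chr10:39376635-39377171) and at 136 kb (chr10:39505627-39506147), and its summed p300 peaks were 7 and 4 in WT and 7 and 8 in IkE5. Zap70 had 1 IkE5 only NFAT1 region, at -1.20 kb from the start (chr1:36760338-36760853), where p300 was in 3 of 4 libraries and an NFAT1 peak of WT lay 0.626 kb away.

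Among the adaptors and proximal effectors, Plcg1 had a WT only Foxp3 region at 3.21 kb (chr2:160734252-160734779) and a WT only NFAT1 region at 10.5 kb (chr2:160741510-160742050). Neither had Ikaros in any library. Vav1, an exchange factor for Rac, had the reverse: Foxp3 (chr17:57290456-57291198) and p300 (chr17:57290425-57290988) in IkE5 only at about the same place, 11.7 and 11.6 kb into the gene, with H3K27ac in all 4 libraries and Ikaros in both WT libraries. Vav1 had a second IkE5 only Foxp3 region 8.71 kb beyond the gene (chr17:57337942-57338478), without Ikaros. Lcp2 had 2 IkE5 only H3K27ac regions (chr11:34069782-34070468 and chr11:34087140-34088158) and 1 WT only (chr11:34077610-34079123), each within 0.113 kb of acetylation of the other genotype.

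Downstream, Prkcq had 3 NFAT1 regions in WT only inside the gene, at 39.8 kb (chr2:11211891-11212434), 45.9 kb (chr2:11218021-11218541) and 82.2 kb (chr2:11254355-11254898), all with H3K27ac in all 4 libraries and the last 2 with Ikaros in both WT libraries. It also had 3 WT only H3K27ac regions, each within 0.624 kb of IkE5 acetylation, and 1 IkE5 only p300 region at 96.2 kb (chr2:11268360-11268859). Rasgrp1, the diacylglycerol-driven Ras activator, had a second WT only Foxp3 region (chr2:117313612-117314227) and a WT only NFAT1 region (chr2:117312459-117312958), about 29.0 and 30.2 kb into the gene. Bcl10 had 1 WT only Foxp3 region at -7.34 kb (chr3:145916542-145917304). Its partner Malt1 had 1 IkE5 only H3K27ac region (chr18:65478675-65479423) that held Foxp3 and p300 in all 4 libraries and Ikaros in both WT libraries.

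The PI3 kinase genes held sites of both kinds. Upstream of Pik3r1, Foxp3 (chr13:101770974-101771517, at -3.03 kb) and NFAT1 (chr13:101771046-101771592, at -3.10 kb) were in IkE5 only, without Ikaros in either WT library. Pik3r1 also had a WT only p300 region (chr13:101696658-101697288), a WT only NFAT1 region (chr13:101701942-101702553), 3 IkE5 only H3K27ac regions and 1 WT only. Near Pik3cd, the catalytic subunit of leukocytes, a WT only Foxp3 region with Ikaros in both WT libraries (chr4:149710435-149710943) overlapped an H3K27ac region found in IkE5 only (chr4:149710172-149710826), so that Foxp3 and acetylation were called in opposite genotypes 7.87 and 7.61 kb outside the gene.

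A similar opposition was seen at Ppp3ca, which encodes a calcineurin catalytic subunit. NFAT1 at chr3:136742536-136743151 was in WT only and H3K27ac at chr3:136742460-136743716 in IkE5 only, with Foxp3 in all 4 libraries, p300 in 3 and Ikaros in both WT libraries. Ppp3ca also had p300 in IkE5 only at chr3:136725469-136726137, again with Ikaros in both WT libraries, and a second IkE5 only H3K27ac region (chr3:136708272-136708897). Its p300 peaks numbered 1 and 0 in WT and 4 and 3 in IkE5, so the groups did not overlap. Ppp3cc had its p300 peaks of IkE5 at a single region (chr14:70283366-70283910), where H3K27ac was in all 4 libraries. Ppp3cb had an IkE5 only H3K27ac region (chr14:20495392-20496137), which lay 3.23 kb outside the gene and overlapped Mss51. Stim1, the store calcium sensor, had a WT only NFAT1 region at 70.3 kb (chr7:102337802-102338377) where Foxp3, p300 and H3K27ac were in all 4 libraries. It had an H3K27ac region in each genotype alone (WT, chr7:102322021-102323381, IkE5, chr7:102395656-102397189), Stim2 had 1 in WT only (chr5:54016211-54017024) and Itpr3 had 1 in WT only (chr17:27083247-27084272).

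By role, the 23 WT only NFAT1 regions were 10 at 7 of 11 phosphatases and inhibitors, 5 at 3 of 7 downstream genes, 3 at 3 of 8 calcium genes, 3 at 2 of 4 kinases, 2 at 2 of 5 adaptors and effectors and 0 at the 5 receptor genes. The background is 31.1% of genes with an NFAT1 region, and no difference between roles was tested. Among the inhibitors Cblb had 3, at 50.4, 116 and 151 kb from the start (chr16:52081663-52082201, chr16:52147390-52147910 and chr16:52181959-52182465), all with Ikaros in both WT libraries, beside 1 IkE5 only NFAT1 region at 4.94 kb (chr16:52036213-52036774) and a WT only p300 region at 33.3 kb (chr16:52064623-52065135). Ptpn22, a phosphatase that acts on Lck and Zap70, had 2 (chr3:103867977-103868526 and chr3:103886033-103886584), both with Ikaros in both WT libraries. Ptpn6, which encodes the phosphatase SHP-1, had 1 (chr6:124723353-124723956) with Foxp3, p300 and H3K27ac in all 4 libraries. Cbl had 1 upstream at -4.67 kb (chr9:44238405-44239025), and the nearest NFAT1 peak of IkE5 was 132 kb away.

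The 2 diacylglycerol kinase genes, whose products remove the messenger that RasGRP1 reads, each had a WT only NFAT1 region near a start, at -1.11 kb for Dgka (chr10:128738459-128738981) and at -2.20 kb for Dgkz (chr2:91952301-91952802). At Dgkz p300 was in WT only at the same place (chr2:91952277-91952800), Foxp3 was in no library and Ikaros in 1. Ptprc had 2 IkE5 only NFAT1 regions (chr1:138142348-138142875 and chr1:138177758-138178313), both without Ikaros or p300, and 1 WT only (chr1:138145001-138145532), so its NFAT1 peaks were 4 and 5 in WT and 6 and 5 in IkE5. Among the H3K27ac regions Pag1, the adaptor that holds Csk at the membrane, had 2 in WT only (chr3:9754446-9756541 and chr3:9770853-9771717) and 1 in IkE5 only (chr3:9751277-9751865). Ptprc, Dgkz, Cbl and Ubash3a had 1 each in WT only (chr1:138111461-138112378, chr2:91985358-91986479, chr9:44208915-44209774 and chr17:31266095-31267021), and Cbl 1 in IkE5 only (chr9:44225881-44226382). The Dgkz region lay 8.91 kb outside the gene and overlapped Creb3l1, and the Ubash3a region lay 6.41 kb outside and overlapped Rsph1.

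In all, p300 and NFAT1 calls were in WT only together at 3 sites, those of Lck, Fyn and Dgkz. Foxp3 was in IkE5 only together with p300 at Vav1 and together with NFAT1 at Pik3r1. Such joint calls were not counted over all regions, so they have no background here. Of all NFAT1 regions, 19.4% were WT only.

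The length of DNA that H3K27ac peaks covered in each window was scaled by each library’s total length and compared with limma on log2(scaled length + 1000 bp), a scale that understates changes of short coverage. Across 12714 genes, 94 were higher in IkE5 (0.739%) and 49 lower (0.385%) at an adjusted p under 0.05. Of the 40 signalling genes 1, Themis, was higher by this test and 0 were lower. At an unadjusted limma p under 0.05, 3 were higher and 2 lower, near the background of 6.39% and 6.49% of all genes. In scaled length the groups did not overlap at 18 genes, 11 with both IkE5 libraries above both WT libraries (27.5%, against 18.5% of all genes) and 7 below (17.5%, against 21.1%). Of these genes Zap70, Pik3cd, Lcp2, Cd4, Lat, Prkcq, Dgka and Ptpn6 overlapped before scaling. The share over all genes was not counted before scaling. The median log2 difference was -0.01 over the 40 genes and -0.02 over all genes, with a range of -0.84 to 1.51. In bulk samples such as these, fewer cells carrying a mark and less of it per cell cannot be told apart.

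**Figure D4:**
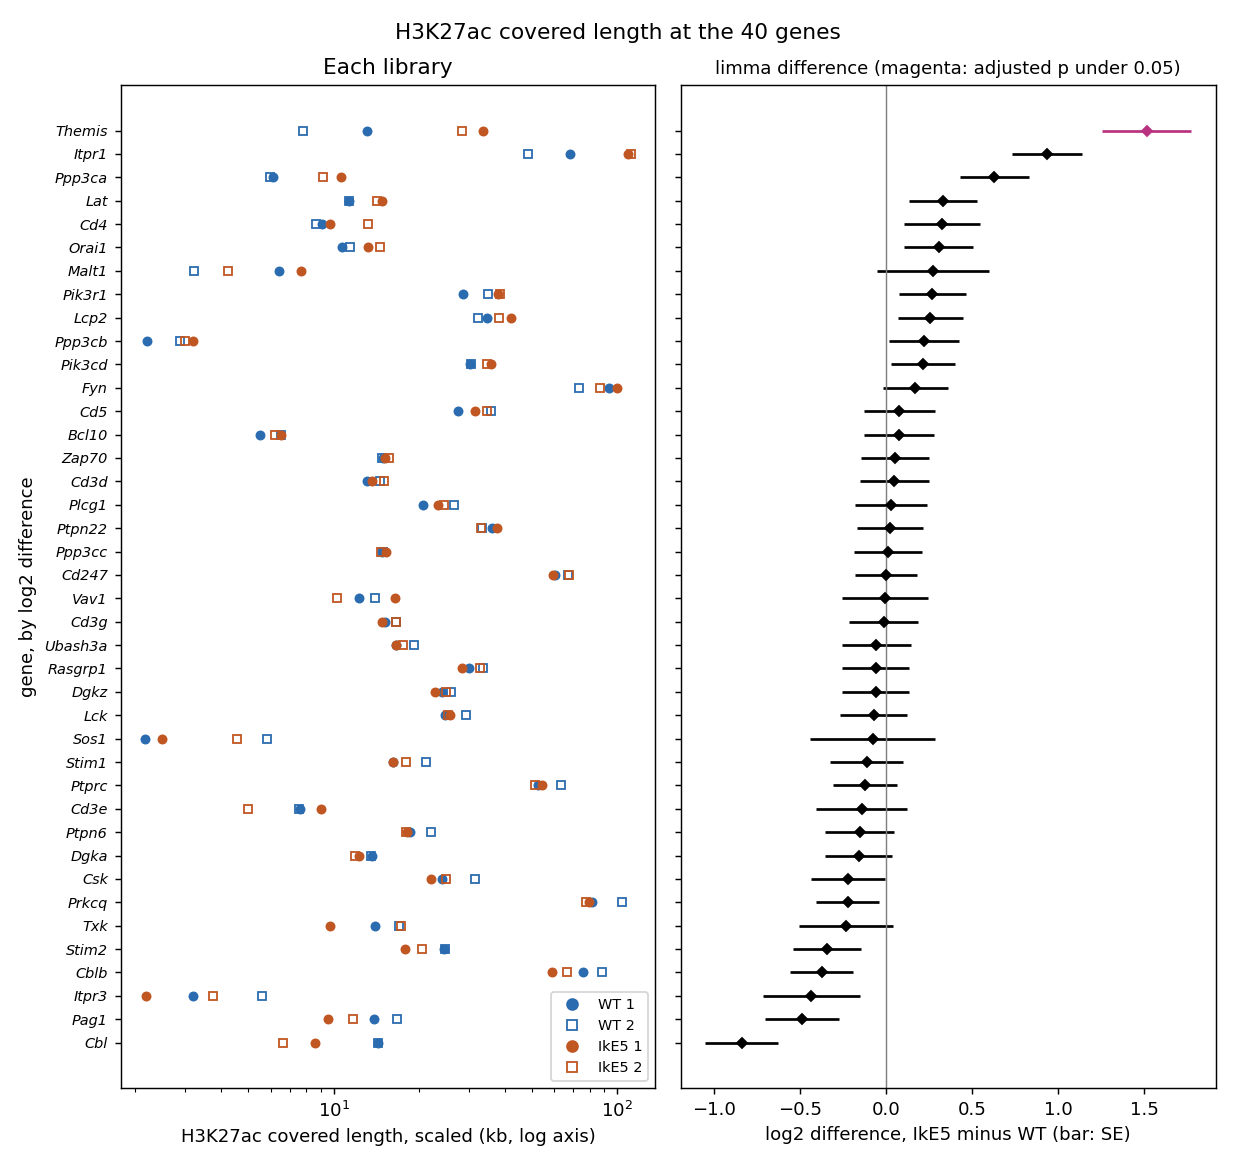
H3K27ac covered length, scaled, at the 40 genes in each library (left, kb on a log axis) and the limma log2 difference, IkE5 minus WT, with its SE (right), genes ordered by the difference. Most differences lie near zero, Themis (1.51) and Itpr1 (0.93) stand at the high end and Cbl (-0.84) at the low end.

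Themis had 13.1 and 7.82 kb of scaled H3K27ac in WT and 33.5 and 28.4 kb in IkE5. Both IkE5 libraries lay far above both WT libraries, with means of 10.5 ± 3.74 and 30.9 ± 3.62 kb (SD, n = 2 each), and the difference was 1.51 ± 0.26 on the log2 scale (limma adjusted p = 0.0362). Before scaling the lengths were 15.5, 6.34, 36.3 and 26.2 kb. The promoter at chr10:28668110-28668409 was acetylated in all 4 libraries. The added length lay in the gene body, for instance at chr10:28686755-28688333, which was in IkE5 only, and at chr10:28692310-28698515, which both IkE5 libraries and WT 1 had. Foxp3 was in IkE5 only at 109 kb from the start (chr10:28776808-28777363), where Ikaros was in both WT libraries and p300 and NFAT1 in none. The call of Themis did not hold with no scaling (limma adjusted p = 0.451), with median ratio scaling (limma adjusted p = 0.172), with a 200 bp pseudocount (limma adjusted p = 0.0624), with no filter (limma adjusted p = 0.0605) or without WT library 2 (1.17, limma adjusted p = 0.0542), although the log2 difference was positive in all 13 alternatives (1.17 to 1.85).

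Itpr1 had the next highest difference, with 68.0 and 48.2 kb in WT and 109 and 111 kb in IkE5. The groups did not overlap (58.1 ± 14.0 and 110 ± 1.69 kb, SD, n = 2 each). The difference of 0.93 ± 0.20 on the log2 scale did not pass the adjusted threshold (limma adjusted p = 0.076). It passed with a window of 2 kb (limma adjusted p = 0.0389) and with the replicate number as a block (limma adjusted p = 0.00678). It did not pass with no scaling (limma adjusted p = 0.58) or median ratio scaling (limma adjusted p = 0.228). Nor did it with a 200 bp pseudocount (limma adjusted p = 0.102) or no filter (limma adjusted p = 0.109). The difference was 1.18 without WT library 1 and 0.69 without WT library 2. Itpr1 also has the longest window of the 40 genes (358 kb, against a median of 72.6 kb), and region counts were not divided by length. Its 10 IkE5 only H3K27ac regions were the most of any of the 40 genes, against 1 in WT only, and 6 of the 10 lay more than 1 kb from any WT acetylation. The longest of them, chr6:108470332-108472978, chr6:108426135-108428303 and chr6:108317465-108319495, spanned 2647, 2169 and 2031 bp. Of the 10, 1 (chr6:108426135-108428303) had Ikaros in both WT libraries and the other 9 had none. Over all IkE5 only H3K27ac regions 4.99% had Ikaros in both WT libraries, and at the 40 genes 4 of 27 did. Factor regions at Itpr1 went both ways. Foxp3 had 2 WT only (chr6:108435261-108435775 and chr6:108524211-108525094) and 1 IkE5 only region (chr6:108313942-108314513), NFAT1 had 1 of each (chr6:108549405-108549934 in WT, chr6:108325774-108326285 in IkE5), and p300 had 1 in IkE5 only (chr6:108476927-108477727).

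Ppp3ca had 6.13 and 5.95 kb in WT and 10.6 and 9.17 kb in IkE5, without overlap (0.63 ± 0.20, limma adjusted p = 0.198). Lat, the membrane scaffold of the pathway, had 11.4 and 11.3 kb in WT and 14.9 and 14.2 kb in IkE5 (0.33 ± 0.20, limma adjusted p = 0.584). Cd4 had 9.07 and 8.63 kb in WT and 9.69 and 13.2 kb in IkE5 (0.32 ± 0.22, limma adjusted p = 0.675). In all 3 both IkE5 libraries were above both WT libraries in scaled length, and none passed the test. Before scaling Lat and Cd4 overlapped between the genotypes.

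At the low end, Cbl had 14.3 and 14.3 kb in WT and 8.61 and 6.62 kb in IkE5. The groups did not overlap (14.3 ± 0.0368 and 7.62 ± 1.41 kb, SD, n = 2 each), with a log2 difference of -0.84 ± 0.21 (limma adjusted p = 0.109). Before scaling the lengths were 16.9 and 11.6 kb in WT and 9.33 and 6.11 kb in IkE5, so the small WT SD holds for scaled lengths only. The same gene had its NFAT1 peaks in WT alone and an upstream NFAT1 site that Ikaros shared, where H3K27ac was called in all 4 libraries. Whether the NFAT1 calls and the covered length at Cbl are connected was not tested. Pag1 had 13.9 and 16.8 kb in WT and 9.53 and 11.7 kb in IkE5 (-0.49 ± 0.22, limma adjusted p = 0.385), Cblb 75.4 and 88.2 kb and 59.0 and 66.6 kb (-0.37 ± 0.18, limma adjusted p = 0.451), and Stim2 24.5 and 24.6 kb and 17.9 and 20.4 kb (-0.35 ± 0.20, limma adjusted p = 0.557). Both IkE5 libraries were below both WT libraries in these 3 as well. Itpr3, with 3.20 and 5.59 kb in WT and 2.18 and 3.77 kb in IkE5, overlapped between the genotypes (-0.43 ± 0.28, limma adjusted p = 0.645).

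**Figure D5:**
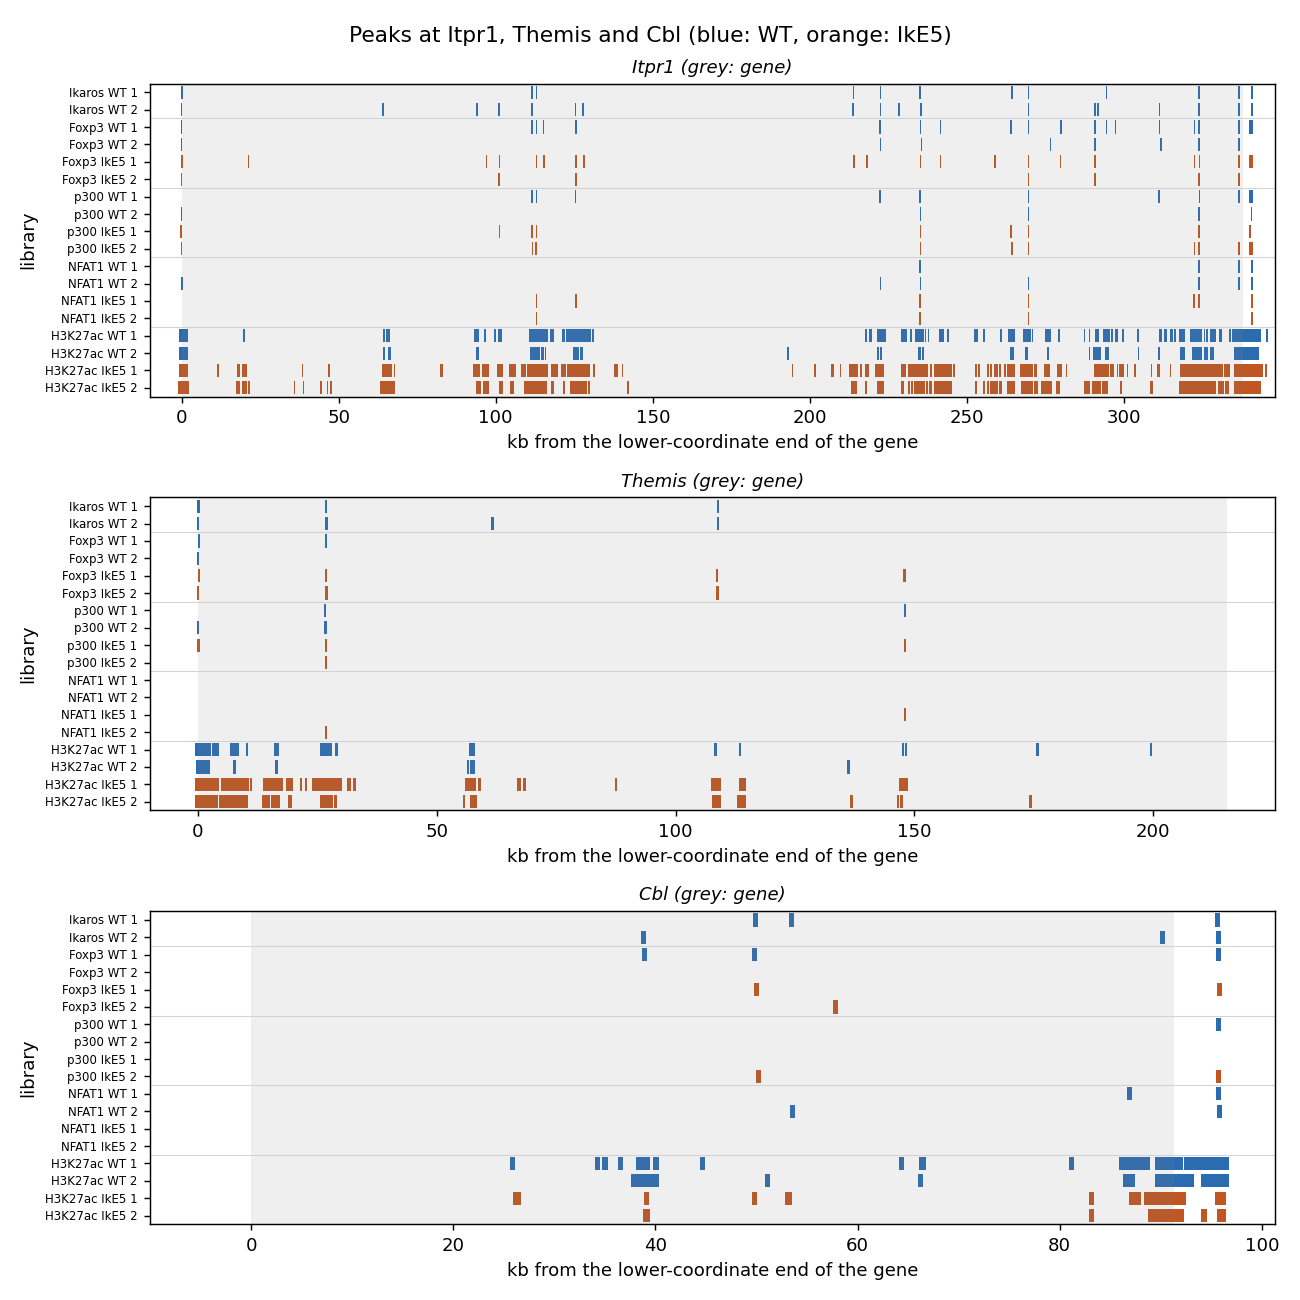
Peaks of every library at Itpr1, Themis and Cbl, in kb from the lower-coordinate end of the gene (grey), with blue for WT and orange for IkE5. H3K27ac bars cover more of Itpr1 and Themis in the IkE5 rows (109 and 111 kb against 68.0 and 48.2 kb, and 33.5 and 28.4 kb against 13.1 and 7.82 kb, scaled), and at Cbl the NFAT1 rows of IkE5 are empty.

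Split by role, with roles assigned when earlier results of these data were known, the 11 phosphatases and inhibitors had a median log2 difference of -0.15. Of their 11 values 9 were below zero, as were 53.7% over all genes, and 5 genes had both IkE5 libraries below both WT libraries and 0 above, where all genes had 21.1% and 18.5%. The 8 calcium genes had a median of 0.11, with 4 genes above (Itpr1, Ppp3ca, Orai1 and Ppp3cb) and 1 below (Stim2). The 5 adaptors and effectors had a median of 0.26 with 3 above (Themis, Lat and Lcp2) and 0 below. Before scaling Lat and Lcp2 overlapped. Medians were -0.00 for the 5 receptor genes, -0.01 for the 4 kinases and 0.07 for the 7 downstream genes, with 1, 1 and 2 genes above and 0, 0 and 1 below. No difference between these roles was tested, and the groups are small.

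A list of 58 other genes of receptor and calcium signalling was fitted in the same way. Of the 58, 0 were higher and 1 was lower at an adjusted p under 0.05, and at an unadjusted limma p under 0.05 these were 7 and 3 (6.39% and 6.49% of all genes). Their median log2 difference was -0.01, with 16 genes above without overlap (27.6%, against 18.5% of all genes) and 10 below (17.2%, against 21.1%). The gene called lower was Ubash3b, which encodes a suppressor of receptor signalling related to Ubash3a, with 69.9 and 56.0 kb in WT and 25.0 and 23.6 kb in IkE5 (-1.33 ± 0.20, limma adjusted p = 0.0222). The highest value was at Ptprj, a receptor phosphatase, with 12.4 and 10.1 kb in WT and 40.6 and 18.6 kb in IkE5 (1.23 ± 0.33, limma adjusted p = 0.127). The call of Ubash3b did not hold with no scaling, where 0 genes across the genome were lower.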

How the data were processed

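For 18 of 22 samples the authors deposited a peak list, used here as given, with chromosome, start and end and no score. The 4 inputs were not analysed here. The submitters' processing notes name the build mm10 and, with no versions, HOMER, bedtools, MACS2, Bowtie2 and FastQC. Peak calling thresholds are not given in the sources used here. Groups came from the sample titles.

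The 40 genes, their roles and the lists were chosen with earlier results of these data known. All 40 matched RefSeq on GRCm38.p6. Presence was described without a test. Peak sums were compared with the exact permutation test. R 4.3.3 with limma 3.58.1 fitted H3K27ac covered length, as log2(scaled length + 1000 bp) with a trended prior, at the 12714 genes whose mean length reached 1000 bp, with Benjamini-Hochberg adjustment over them at 0.05. The fit code was run on simulated data with independent noise, which does not address deviations that libraries share. Named genes are those with a WT only or IkE5 only region, the 5 highest and 5 lowest H3K27ac differences, those lacking a target, and the gene with most peaks of a target. At most 0.745% of intervals were identical in any of 153 pairs of lists, so every library was kept. A further marker list is not reported here.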

Additional observations from a re-analysis of the deposited data

How the results depend on the processing

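A stricter peak threshold was not run, because the lists hold no scores. Depth is unknown and limits each absent call. The 10 named H3K27ac differences kept their sign in 13 of 13 alternatives.

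Region counts at the 40 genes changed as follows. Requiring no peak of the other genotype within 1 kb gave 5 WT only Foxp3 regions, and 8 WT only and 17 IkE5 only H3K27ac regions. The gene body alone gave 3 IkE5 only Foxp3 and 3 IkE5 only NFAT1 regions, and a window of 2 kb gave 3 IkE5 only Foxp3 regions. Leaving out 1 library gave, WT only and IkE5 only, 16 to 39 and 7 to 46 (Foxp3), 10 to 28 and 9 to 23 (p300), 26 to 41 and 8 to 18 (NFAT1) and 27 to 119 and 30 to 127 (H3K27ac).

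The ratio of peaks at the genes, IkE5 over WT, crossed 1 for Foxp3 (0.983 in the gene body, 0.981 with 2 kb, 0.967 per peak of the list), for p300 (0.975 in the gene body) and for NFAT1 (1.27 per peak of the list). Without 1 library it ranged from 0.707 to 1.5 (Foxp3), 0.836 to 1.28 (p300), 0.593 to 0.861 (NFAT1) and 0.912 to 1.14 (H3K27ac).

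The number of these genes with more H3K27ac was 0 with no scaling, median ratio scaling, a 200 bp pseudocount or no filter, 2 (Themis and Itpr1) with a 2 kb window and 0 to 2 without 1 library. Over all genes these settings gave 0, 19, 42, 54 and 133 higher and 0, 3, 19, 24 and 81 lower genes, and 135 to 626 in all without 1 library. Higher genes were 65.7% of calls, 86.4% with median ratio scaling, 51.1% with the replicate block and 51.0% without IkE5 replicate 2, while without overlap 2347 genes were above and 2688 below. The cause of these changes was not tested.

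With the replicate number as a block, 3 genes were higher (Themis, Itpr1 with adjusted p = 0.00678 and Ppp3ca with adjusted p = 0.0281, limma) and 1 lower (Cbl, limma adjusted p = 0.0109), and over all genes 639 and 611. Deviations of same-numbered libraries correlated over genes (r = 0.46), but the labels do not say that a number marks a shared preparation.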
